A study of Mus musculus with 2 samples.

Results

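Nuclear hormone receptors are transcription factors that bind small fat-soluble ligands, such as retinoic acid, vitamin D, thyroid hormone, oestrogen, oxysterols and fatty acids, or, for the orphan members, have no settled ligand. Many bind DNA as pairs with a retinoid X receptor and exchange corepressors for coactivators when ligand arrives. In the lung, retinoid receptors take part in branching and alveolar formation, COUP-TF factors mark mesenchyme, and lipid-sensing receptors are known in alveolar macrophages. The 39 receptor genes described here were selected by symbol, and all 39 were found among the 32285 gene features of both libraries.

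Both libraries came from fetal lungs of wild-type C57BL/6J mice on gestation day 18. The mothers, females of 6 to 8 weeks, had been sensitized intraperitoneally on days 21 and 7 before mating, with ovalbumin (OVA) in alum or with PBS in alum, and were bred to untreated males. During pregnancy they received OVA or PBS into the nose at intervals of 2 to 3 days, first on gestation day 4 and last on day 17. The PBS library pooled 9 fetuses and the OVA library 8, each from 1 dam per the study's methods. The suspension was a mixture of 3 sorted fractions, namely ILC2s (CD45+, Lin-, ST2+), other immune cells gated on CD45 and epithelium gated on EpCAM. The RNA and the open chromatin of single nuclei were read together. There was 1 library per group, so the difference between OVA and PBS could not be told apart from a difference between litters, pools or library preparations, and no test was made. Intervals below are exact 95% Poisson intervals of UMI counts, or exact binomial intervals of their ratios, and cover counting error only.

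After filtering, 4279 PBS nuclei (median 1115 UMIs) and 4996 OVA nuclei (median 1820.5 UMIs) were kept, with 38.4% and 28.3% mitochondrial UMIs. The libraries shared 54 barcodes. A nucleus was gated to a cell type when at least 3 of the 10 markers of that type were detected, and at least 2 more than of any other type. In this way 1987 PBS and 2756 OVA nuclei were gated, and 6 types held at least 50 nuclei in each library. They were alveolar type 1 cells (AT1, 209 PBS and 282 OVA nuclei), alveolar type 2 cells (AT2, 402 and 295), fibroblasts (733 and 1126), ILC2s (324 and 493), macrophages (75 and 154) and pericytes (78 and 111). Fibroblasts and pericytes were therefore present although the sort named neither. The macrophage gate was the least secure, since 64% of its PBS nuclei and 72.1% of its OVA nuclei sat at the minimum of markers or of lead, and most macrophage-like nuclei stayed outside it in 3 clusters led by Nrg4 and Dmxl2 (c0), by Trem3 and Pld4 (c2) and by Wfdc17 and Spp1 (c10). Levels are given as counts per 1000000 nuclear-encoded gene UMIs (CPM). Each gene was compared across cell types, and genes were not compared with each other, because longer genes yield more intronic reads in nuclei.

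The promoters of 3 receptors are shown first, because their genes carry the cell-type patterns described below. Each line is the RefSeq window of GRCm38.p6 from 250 bases before to 50 bases after the gene start, 5′ to 3′ on the gene's own strand. Vdr, the vitamin D receptor, lies at chr15:97908247-97908546 on the minus strand, and the capitals mark 3 copies of the GC box GGGCGG. Nr4a2, an orphan receptor induced quickly by cell activation, lies at chr2:57123954-57124253 on the minus strand, and the capitals mark 4 copies of TGACG, the half-site of the cyclic AMP response element, on either strand. Rarb, the beta retinoic acid receptor, lies at chr14:16575427-16575726 on the minus strand, and the capitals mark a pair of GTTCA half-sites 6 bases apart, which starts 52 bases before the gene start.
Vdr: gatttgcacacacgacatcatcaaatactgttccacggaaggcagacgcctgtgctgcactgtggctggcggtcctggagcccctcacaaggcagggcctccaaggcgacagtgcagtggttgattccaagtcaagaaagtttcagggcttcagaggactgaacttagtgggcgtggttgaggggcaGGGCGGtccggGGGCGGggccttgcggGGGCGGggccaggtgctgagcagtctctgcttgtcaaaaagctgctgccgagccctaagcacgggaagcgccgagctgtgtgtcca
Nr4a2: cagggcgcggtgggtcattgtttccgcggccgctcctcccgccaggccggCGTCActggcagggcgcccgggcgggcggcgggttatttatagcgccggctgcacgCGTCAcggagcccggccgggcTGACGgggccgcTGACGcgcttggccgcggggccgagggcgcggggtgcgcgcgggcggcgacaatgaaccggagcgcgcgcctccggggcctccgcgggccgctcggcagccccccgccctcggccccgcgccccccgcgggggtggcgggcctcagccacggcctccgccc
Rarb: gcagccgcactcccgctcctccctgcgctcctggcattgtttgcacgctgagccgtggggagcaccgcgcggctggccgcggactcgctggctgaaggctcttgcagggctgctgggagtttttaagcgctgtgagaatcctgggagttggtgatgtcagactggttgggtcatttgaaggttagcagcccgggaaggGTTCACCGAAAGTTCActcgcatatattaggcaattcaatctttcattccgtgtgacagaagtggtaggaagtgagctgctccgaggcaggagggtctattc

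The pair of half-sites was found in 25 of 32851 promoter windows (0.0761%, both strands searched), and among the 55 windows of 36 matched receptor genes it was found only in Rarb. It is a form of the retinoic acid response element. The search was fixed to these letters and this spacing, which are those marked in Rarb. Other half-sites and spacings were not searched as pairs. The share is therefore not that of such elements in general. TGACG was present in 20.8% and GGGCGG in 35.7% of all windows, so these letters were common. All 3 windows lay inside an accessibility peak over their whole 300 bases in both libraries. The full element TGACGTCA was absent from the Nr4a2 window, which says only that these letters are not in these bases.

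Of the 39 receptors, 27 reached 30 UMIs over the gated nuclei of both libraries, and 12 did not. The 12 were Nr1h4 (the bile acid receptor FXR), Nr1i2 and Nr1i3 (the xenobiotic sensors PXR and CAR), Hnf4a and Hnf4g, Nr2e3, Esrrb, Pgr (the progesterone receptor), Nr5a1, Nr5a2, Nr0b1 and Nr0b2. Over all kept nuclei Nr0b1 had 0 UMIs in either library, and the highest of the 12 was Nr5a2 with 6 PBS and 18 OVA UMIs, of which 1 and 13 were in a small endothelial-like cluster. These receptors were not detectable, or barely so, at this depth. Esrrg, the oestrogen-related receptor gamma, had 202 UMIs in gated nuclei but 25 over the 6 types, which left 26 receptors for the comparison of types. For 17 of the 26 (65.4%) the same type was highest in both libraries, where 56.2% of 11616 genes did so. For 5 of the 26 (19.2%) that type was also at least 2-fold above the next type in each library, against 16.5% of all genes. The share of receptors with a leading type was thus near that of genes in general. The 5 were Vdr and Rara in macrophages, Rxrg in ILC2s, and Nr1h3 and Nr2f1 in pericytes.

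**Figure D1:**
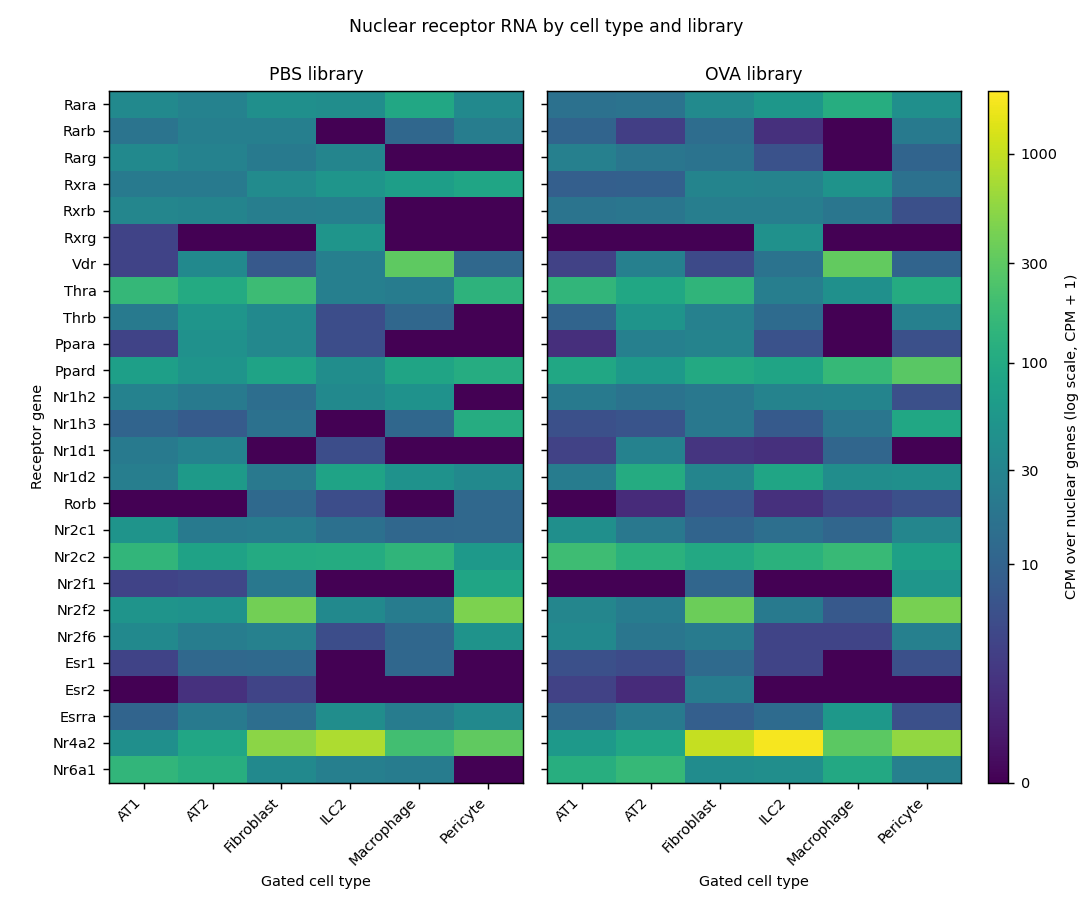
RNA level of the 26 receptor genes with at least 30 UMIs over the 6 gated types, in CPM over nuclear genes on a log colour scale (CPM + 1), PBS library left and OVA library right. The brightest cells are Nr4a2 in ILC2s, fibroblasts and pericytes, Nr2f2 in fibroblasts and pericytes, and Vdr in macrophages.

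Vdr was highest in macrophage-gated nuclei, at 306 CPM in the PBS library (26 UMIs in 14 of 75 nuclei, interval 199.8 to 448) and 317 CPM in the OVA library (85 UMIs in 51 of 154 nuclei, interval 253 to 392). AT2 nuclei came next with 35.9 CPM (18 UMIs) and 26.4 CPM (17 UMIs). Macrophages exceeded them by 3.09 on the log2 scale in PBS (interval 2.17 to 4.05) and 3.59 in OVA (2.83 to 4.43), and the intervals of the levels did not overlap. ILC2 nuclei held 25.5 and 17.1 CPM, pericytes 12.1 and 10.6, fibroblasts 7.38 and 4.53, and AT1 nuclei 3.55 and 3.53. These lower levels rest on 1 to 18 UMIs each. The order below macrophages was AT2, ILC2, pericyte, fibroblast and AT1 in both libraries, and neighbours in that order had overlapping intervals. As a gauge of free RNA, barcodes with fewer than 200 genes held Vdr at 33.9 CPM (10 UMIs, PBS) and 26.9 CPM (2 UMIs, OVA), so the AT2 and ILC2 levels were at or near that background.

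The same gene was then followed over 19 clusters, since few macrophages passed the gate. The receptors themselves had been left out of the clustering. In the Nrg4 and Dmxl2 cluster Vdr stood at 269 CPM in PBS (83 UMIs in 62 of 251 nuclei) and 391 CPM in OVA (587 UMIs in 344 of 931 nuclei), which is 0.54 higher in OVA on the log2 scale (interval 0.20 to 0.89). In the Trem3 and Pld4 cluster it stood at 277 and 249 CPM (124 and 49 UMIs), and in the Wfdc17 and Spp1 cluster at 187 and 164 CPM (30 and 43 UMIs). The cluster led by Ifi204 and C1qa (c9) held 59 macrophage-gated and 71 monocyte-gated nuclei. Its best-matching markers were those of monocytes, but by a mean log2 lead of only 0.18, so it was not named. Vdr stood there at 13.1 CPM (1 UMI) in PBS and 87.4 CPM (17 UMIs) in OVA. In the fibroblast-like clusters the level was at most 9.22 CPM. Vdr in the first 3 of these clusters (c0, c2 and c10) was thus above the level in barcodes with fewer than 200 genes (33.9 CPM in PBS and 26.9 CPM in OVA) in both libraries, and in c9 it was so in OVA only. Within the macrophage gate the level differed between OVA and PBS by 0.05 on the log2 scale (interval -0.60 to 0.75). The gate drew on different clusters in the libraries, with c0 giving 28% of its nuclei in PBS and 61% in OVA, c9 34.7% and 21.4%, c10 21.3% and 13%, and c2 16% and 4.55%.

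**Figure D2:**
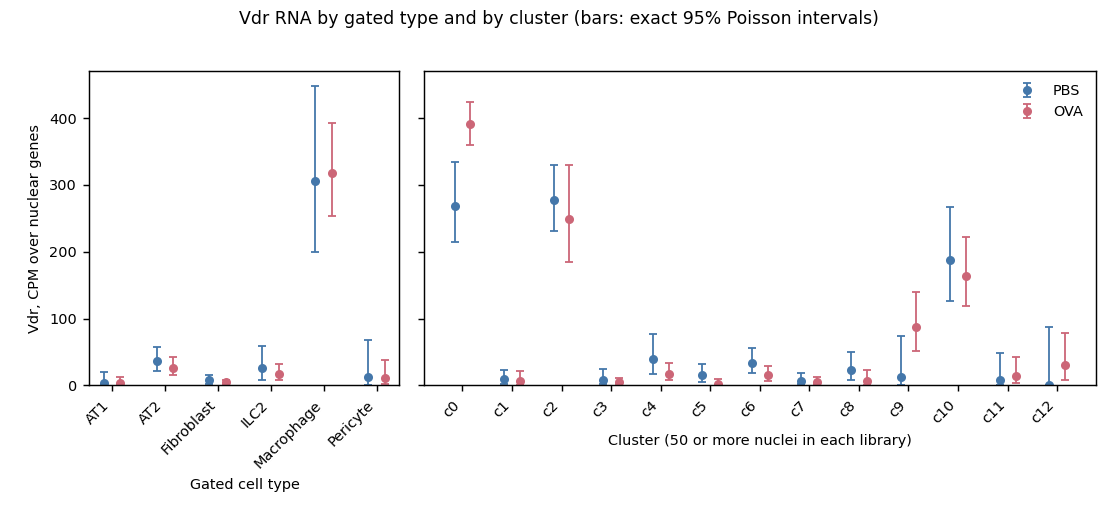
Vdr RNA in CPM over nuclear genes by gated type (left) and by cluster with at least 50 nuclei in each library (right), blue for PBS and red for OVA, with exact 95% Poisson intervals. Macrophage-gated nuclei stand at 306 and 317 CPM, and clusters c0, c2 and c10 between 164 and 391 CPM.

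Chromatin at the Vdr start did not follow the RNA. Counts in peaks within 1 kb of the start were scaled to 1000000 peak counts of the same nuclei (peak CPM). They came to 28.2 peak CPM in PBS macrophages (20 counts) and 35.1 in OVA macrophages (51 counts). AT2 nuclei were highest in both libraries, at 37.8 (168 counts) and 40.2 (114 counts), and fibroblasts held 19.6 and 21.1. Inside the gene, an intronic peak was highest in macrophages. In the OVA library it spanned chr15:97880187-97881189 (mm10) and held 33.1 peak CPM in macrophages (48 of its 71 counts) against 3.39 in ILC2s, the next type. In the PBS library the matching peak at chr15:97880249-97881154 held 22.6 in macrophages (16 counts) against 14.7 in AT1 nuclei (16 counts), so macrophages led there by a smaller margin. A second peak, overlapping an exon, was highest in AT2 nuclei in both libraries. It held 12.4 peak CPM against 2.76 in the next type at chr15:97895955-97896974 (PBS), and 14.8 against 1.38 at chr15:97896138-97896942 (OVA). These peaks were picked after their values had been seen.

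Among the other retinoid receptors and their partners, Rara encodes the alpha retinoic acid receptor. It was highest in macrophages, at 94.1 CPM in PBS (8 UMIs) and 112 CPM in OVA (30 UMIs). The next types were fibroblasts at 43.0 CPM in PBS and ILC2s at 55.2 CPM in OVA. The lead was 1.13 on the log2 scale in PBS with an interval that included equality (-0.19 to 2.26), and 1.02 in OVA (0.24 to 1.81), so this call lies at the 2-fold limit, and it was lost when doublets were kept or all gene UMIs were used for scaling. Barcodes with fewer than 200 genes held Rara at 44.1 CPM (13 UMIs) and 80.7 CPM (6 UMIs), above every type but macrophages in each library. In the clusters c0 and c2 Rara held 104 and 143 CPM in PBS and 121 and 132 CPM in OVA. Among the 6 types, nearly all UMIs of Rxrg, the gamma retinoid X receptor, were in ILC2s. ILC2 nuclei held 51.1 CPM in PBS (10 UMIs in 10 nuclei) and 45.7 CPM in OVA (24 UMIs in 23 nuclei). The other 5 types together had 1 UMI in PBS (AT1) and 0 in OVA, where a count of 0 allows up to 1.67 CPM in fibroblasts and up to 13.8 CPM in macrophages. In PBS the macrophage and pericyte gates held only 84998 and 82462 nuclear UMIs. Their counts of 0 allow higher levels and do not show absence. The ILC2-like cluster c4 gave 63.5 and 43.2 CPM. Rxrg had 35 UMIs over the 6 types and so could not be called with a minimum of 100 UMIs, and it was also not called in the named clusters or with 1000 to 25000 gene UMIs per nucleus.

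Rxra and Rxrb, the partners of most other receptors, were spread over the types. Rxra peaked in pericytes in PBS (84.9 CPM, 7 UMIs) and in macrophages in OVA (48.5 CPM, 13 UMIs). Rxrb peaked in AT1 nuclei in PBS (31.9 CPM) and in ILC2s in OVA (24.7 CPM). Rarg was highest in AT1 nuclei in both libraries (35.5 and 26.5 CPM), with 0 UMIs in macrophages. Rarb was at most 25.9 CPM in the 6 types, in AT2 nuclei of PBS and in pericytes of OVA (21.3 CPM). Its level was far higher in nuclei outside these gates, which are described in the closing section. At its start, accessibility in peaks was 24.7 and 21.5 peak CPM in pericytes and 16.8 and 19.4 in fibroblasts, against at most 4.43 in ILC2s and macrophages.

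Thra and Thrb encode the thyroid hormone receptors. Thra was high in the structural types and low in both immune types. It stood at 184 and 143 CPM in fibroblasts, 156 and 147 in AT1 nuclei, 133 and 106 in pericytes and 102 and 91.6 in AT2 nuclei (PBS and OVA), against 25.5 and 24.7 in ILC2s and 23.5 and 44.8 in macrophages. The 4 structural types were within 2-fold of each other in each library. Thrb was highest in AT2 nuclei at 51.8 and 49.7 CPM, followed by fibroblasts at 35.7 and 27.6.

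Of the lipid sensors, Nr1h3 encodes the liver X receptor alpha, which controls cholesterol export. It was highest in pericytes, at 109 CPM in PBS (9 UMIs in 8 of 78 nuclei) and 90.5 CPM in OVA (17 UMIs in 13 of 111 nuclei). Fibroblasts were next at 15.98 and 19.91 CPM, lower by 2.77 on the log2 scale in PBS (interval 1.37 to 4.11) and 2.18 in OVA (1.28 to 3.02). The pericyte-like cluster gave 111 and 91.4 CPM. Barcodes with fewer than 200 genes held 16.97 and 13.4 CPM. At the Nr1h3 start pericytes were also the most accessible type, with 54.6 and 97.9 peak CPM, and fibroblasts were next with 46.2 and 58.6. The interval of the PBS pericyte level included the fibroblast level. Pericytes were likewise most accessible at the start in both libraries for Rara, Rarb, Rxra, Rxrb, Thra, Nr2f2, Nr2f6 and Pgr. A pericyte maximum is therefore not particular to Nr1h3. Macrophages, in which this receptor is known to act, held 11.8 CPM (1 UMI) and 18.7 CPM (5 UMIs). Nr1h2, which encodes the related liver X receptor beta, was highest in macrophages at 47.1 and 29.9 CPM, on 4 and 8 UMIs. ILC2s were next at 35.7 and 28.5 CPM. The log2 intervals of the lead included equality (-1.82 to 2.37 in PBS and -1.38 to 1.395 in OVA). For this gene, barcodes with fewer than 200 genes held 20.4 and 26.9 CPM. Ppara was highest in AT2 nuclei in PBS (45.8 CPM) and in fibroblasts in OVA (28.5 CPM), with 0 UMIs in macrophages. Ppard had UMIs in every type, from 40.8 CPM in ILC2s to 109 CPM in pericytes in PBS, and from 60.6 CPM in AT2 nuclei to 282 CPM in pericytes in OVA. Barcodes with fewer than 200 genes held 98.4 CPM (29 UMIs) and 134 CPM (10 UMIs), which only pericytes exceeded in PBS, and only pericytes and macrophages (160.5 CPM) in OVA.

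Nr1d1 and Nr1d2, the REV-ERB repressors of the circadian clock, and Rorb had no leading type. Nr1d2 was highest in ILC2s in PBS (81.7 CPM) and in AT2 nuclei in OVA (106 CPM), with the other of these types second in each library. Nr1d1 stood at 27.9 CPM in AT2 nuclei of both libraries and had 0 UMIs in pericytes. Rorb was highest in fibroblasts at 12.3 and 6.79 CPM. It also had 9 UMIs in the Wfdc17 and Spp1 cluster of PBS, all of them in 1 nucleus.

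The NR2 orphan receptors include Nr2f1 and Nr2f2, which encode COUP-TFI and COUP-TFII. Nr2f2 separated the stroma from the other types. Pericytes held 449 CPM in PBS (37 UMIs) and 420 CPM in OVA (79 UMIs), and fibroblasts 397 (323 UMIs) and 364 (804 UMIs). The pair did not differ beyond counting error (0.18 on the log2 scale in PBS, interval -0.36 to 0.67, and 0.21 in OVA, -0.14 to 0.54). AT1 nuclei, the next type, held 49.7 and 31.8 CPM, and macrophages held 23.5 and 7.47 CPM on 2 UMIs in each library. Barcodes with fewer than 200 genes held 98.4 and 121 CPM, more than any of the other 4 types. The gene has 2 annotated starts, and the 1 peak counted near them in PBS (chr7:70361417-70362273) lay within 1 kb of the start of a shorter transcript and in an intron of the longer one. The RefSeq promoter window of the longer one (chr7:70366697-70366996) overlapped no peak in either library. Accessibility of the counted peak was lower in the immune types than in the rest. It was 70.5 and 71.0 peak CPM in pericytes and 69.0 and 69.6 in fibroblasts, but also 65.3 and 32.8 in AT1 nuclei and 49.2 and 47.9 in AT2 nuclei. ILC2s held 10.1 and 4.69, and macrophages 0 and 3.44 (0 and 5 counts). In AT1 and AT2 nuclei this peak was thus accessible while the RNA was low.

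Nr2f1 was highest in pericytes, at 84.9 CPM in PBS (7 UMIs) and 53.2 CPM in OVA (10 UMIs), with fibroblasts next at 19.7 and 11.3 CPM. The lead was 2.11 on the log2 scale in PBS (interval 0.59 to 3.47) and 2.23 in OVA (1.01 to 3.34). Accessibility within 1 kb of its start was 28.2 peak CPM in PBS pericytes (16 counts) and 28.4 in PBS fibroblasts (132 counts), so the pericyte lead in RNA was not matched there. In OVA it was 51.7 in pericytes (48 counts) and 30.1 in fibroblasts (246 counts). Over all peaks in the gene or within 5 kb, pericytes were highest in both libraries. They held 81.0 peak CPM in PBS and 145 in OVA, against 56.7 and 62.7 in fibroblasts. Nr2c2, the testicular receptor TR4, had UMIs in every type, from 60.6 CPM in pericytes to 149 CPM in AT1 nuclei in PBS and from 74.5 to 189 CPM in the same types in OVA. Barcodes with fewer than 200 genes held 67.9 CPM (20 UMIs) in PBS, above the pericytes, and 53.8 CPM (4 UMIs) in OVA. Nr2c1 was highest in AT1 nuclei at 49.7 and 42.4 CPM. Nr2f6 was highest in pericytes in PBS (48.5 CPM, 4 UMIs) and in AT1 nuclei in OVA (35.3 CPM, 20 UMIs).

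**Figure D3:**
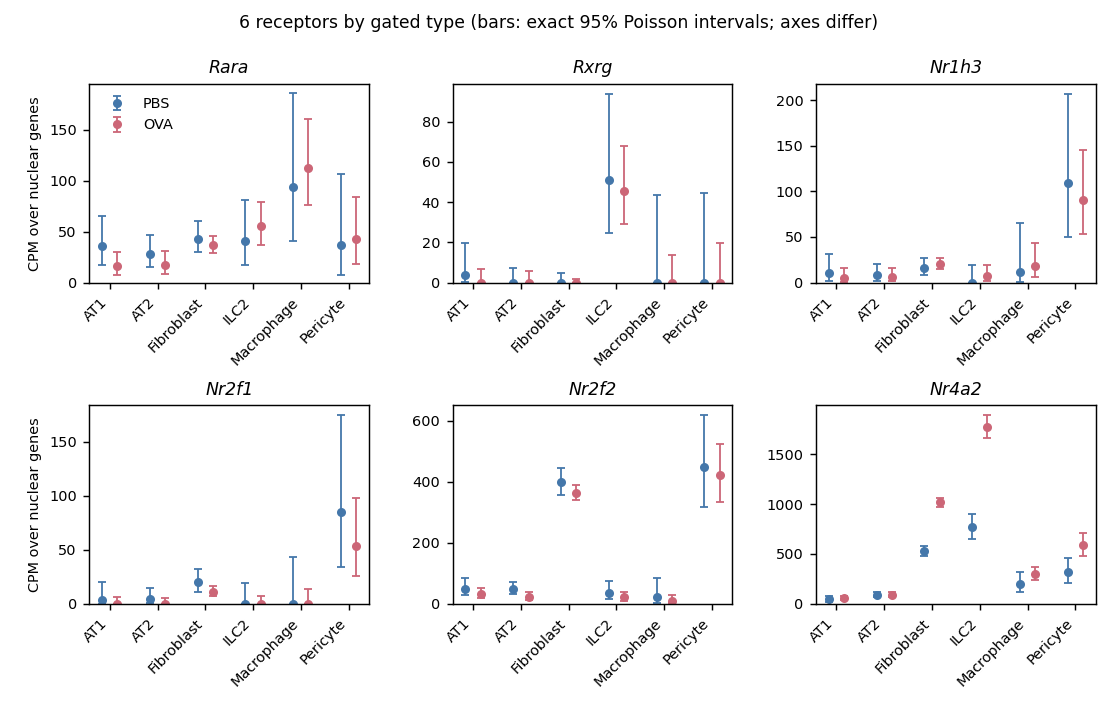
RNA level of 6 receptors by gated type in CPM over nuclear genes, each panel with its own axis from 0, blue for PBS and red for OVA, with exact 95% Poisson intervals. Rxrg stands out in ILC2s, Nr1h3 and Nr2f1 in pericytes, Nr2f2 in fibroblasts and pericytes, and Nr4a2 in ILC2s and fibroblasts, where OVA lies above PBS.

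The oestrogen receptor genes were low in the 6 types. Esr1 stood at 12.3 and 12.7 CPM in fibroblasts, its highest type. Esr2 was at 3.69 and 23.5 CPM in fibroblasts and at most 3.53 CPM elsewhere. Esrra, the oestrogen-related receptor alpha, was highest in ILC2s in PBS (40.8 CPM, 8 UMIs) and in macrophages in OVA (56.0 CPM, 15 UMIs). Nr6a1, the germ cell nuclear factor, was highest in the epithelial types, with 149 and 117 CPM in AT1 nuclei and 118 and 163 CPM in AT2 nuclei. Other types were at most 35.7 CPM in PBS and 97.1 CPM in OVA, the latter in macrophages.

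Nr4a2 was highest in ILC2s in both libraries, at 771 CPM in PBS (151 UMIs in 98 of 324 nuclei) and 1780 CPM in OVA (936 UMIs in 299 of 493 nuclei). Fibroblasts were next at 525 and 1017 CPM, lower than ILC2s by 0.55 on the log2 scale in PBS (interval 0.28 to 0.83) and 0.81 in OVA (0.70 to 0.92). Pericytes held 315 and 585 CPM, macrophages 200.0 and 295, AT2 nuclei 87.7 and 90.0, and AT1 nuclei 42.6 and 58.3. The order of the 6 types was the same in both libraries. Barcodes with fewer than 200 genes held 349.6 CPM in PBS and 282 CPM in OVA, so only ILC2s and fibroblasts were above that gauge of free RNA in PBS. Accessibility near the 3 annotated Nr4a2 starts, summed over 3 peaks, was also highest in ILC2s. The types lay close together, from 73.4 to 106 peak CPM in PBS and from 83.3 to 109 in OVA. The RNA differed by over an order of magnitude. The ILC2 lead was not seen in the peak that holds the printed promoter window. There fibroblasts were highest in PBS (64.5 peak CPM) and pericytes in OVA (71.0). ILC2s led in a peak inside the gene, with 58.1 against 37.0 in PBS (chr2:57114390-57115323) and 59.4 against 38.9 in OVA (chr2:57114381-57115324). This peak was picked after its values had been seen.

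For 17 receptors the highest RNA type was the same in both libraries. In 4 of these (Rarg, Nr1h3, Nr2f2 and Nr4a2) that type was also the most accessible within 1 kb of any annotated start in both libraries. For Nr2f2 and Nr4a2 the match was not seen at the RefSeq promoter windows given above. Among all genes of this kind with at least 30 counts at the start, the types matched for 1288 of 5992 (21.5%). Of the 5 receptors with a leading type, Nr1h3 alone had that match.

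**Figure D4:**
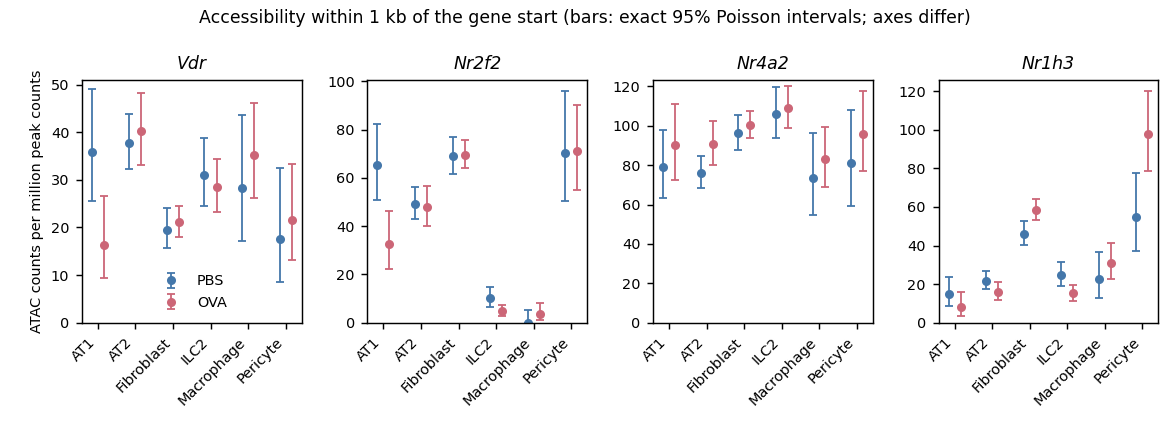
Accessibility counts in peaks within 1 kb of any annotated gene start per 1000000 peak counts of each gated type, for Vdr, Nr2f2, Nr4a2 and Nr1h3. Blue is PBS and red is OVA, with exact 95% Poisson intervals. Peaks were called separately in each library, so types are to be compared within a library. The peak near the shorter Nr2f2 transcript's start holds few counts in ILC2s and macrophages, and the Vdr start is no more open in macrophages than in AT2 nuclei.

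The OVA and PBS libraries were compared within each type for the 56 pairs of receptor and type with at least 30 UMIs. A pair was called when the levels were at least 2-fold apart and the interval excluded equality. By this rule 3 pairs were higher in OVA and 2 were lower. None of 8 pairs was called in AT1 nuclei, where 1.87% of all genes were higher and 1.91% lower. In AT2 nuclei 1 of 11 was lower, against 2.72% higher and 1.87% lower of all genes. Of 22 pairs in fibroblasts 1 was higher and 1 lower, against 1.23% and 2.21%. In ILC2s 1 of 6 was higher, against 4.22% higher and 3.04% lower. None of 5 was called in macrophages, against 5.43% and 3.82%, and 1 of 4 was higher in pericytes, against 5.41% and 2.21%. With so few pairs per type, each call is 1 gene and not a shift of the group. The median of the receptors' log2 ratios lay between -0.17 in fibroblasts and 0.40 in pericytes, beside medians of 0.00 and 0.08 over all genes in those types.

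**Figure D5:**
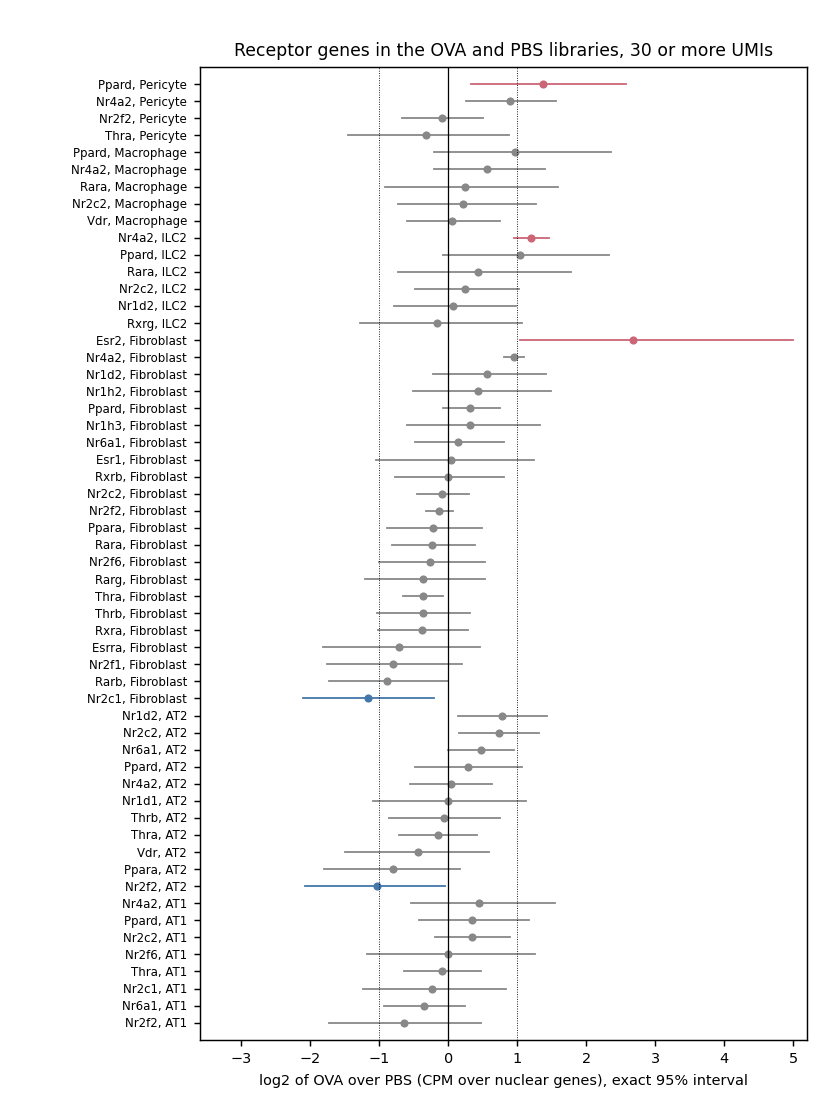
Log2 ratio of OVA over PBS for the 56 pairs of receptor and gated type with at least 30 UMIs, with exact 95% intervals, red where called higher in OVA, blue where called lower, and dotted lines at 2-fold. Esr2 in fibroblasts, Ppard in pericytes and Nr4a2 in ILC2s lie to the right, Nr2c1 in fibroblasts and Nr2f2 in AT2 nuclei to the left.

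Nr4a2 in ILC2s rested on the most UMIs. Its level was higher in OVA by 1.21 on the log2 scale (interval 0.96 to 1.47), and by 1.20 without the nucleus with the most UMIs in each library. In the other types the difference missed the 2-fold limit. It was 0.95 in fibroblasts (interval 0.80 to 1.11) and 0.89 in pericytes (0.27 to 1.57), both above equality, and 0.04 in AT2 nuclei (-0.55 to 0.64). Among the clusters the ILC2-like one gave 865 and 1807 CPM, and the Nrg4 and Dmxl2 cluster 195 and 465 CPM. Other genes of rapid induction were set beside it. The summed level of 10 of them (Fos, Fosb, Jun, Junb, Egr1, Atf3, Ier2, Dusp1, Btg2 and Zfp36, chosen after these values were seen) was 7020 CPM in PBS and 5267 CPM in OVA in ILC2s, with 2 of the 10 higher in OVA and none at 0. On the log2 scale the OVA over PBS ratio of this sum was 0.05 in fibroblasts (5 of 10 genes higher) and 0.26 in pericytes (9 of 10). It was 0.05 in AT2 nuclei, -0.17 in AT1 nuclei and -0.48 in macrophages. ILC2 nuclei had 41.4% mitochondrial UMIs in PBS and 30.04% in OVA, and a median of 490.5 and 922 nuclear UMIs. The part of these differences in the result was not tested.

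Ppard, the fatty acid receptor PPAR-delta, was higher in OVA pericytes at 282 CPM (53 UMIs in 33 nuclei) than in PBS pericytes at 109 CPM (9 UMIs in 8 nuclei), a difference of 1.37 on the log2 scale (interval 0.34 to 2.58). In the pericyte-like cluster the levels were 284 CPM (OVA) and 94 CPM (PBS). The gauge of free RNA was 98.4 CPM in PBS and 134 CPM in OVA for this gene, so PBS pericytes barely exceeded it. Its ratio was above 1 in the 6 types, from 0.28 on the log2 scale in AT2 nuclei to 1.37, and in ILC2s and macrophages it was 1.03 and 0.96 with intervals that included equality. A peak that overlaps an exon near the 3′ end of Ppard was highest in pericytes in both libraries. It held 38.8 peak CPM (22 counts) against 4.94 in fibroblasts in PBS (chr17:28299722-28300576) and 38.8 (36 counts) against 6.14 in AT1 nuclei in OVA (chr17:28299795-28300802). An intronic peak was instead highest in macrophages, at 38.1 peak CPM in PBS (chr17:28259700-28260623) and 47.5 in OVA (chr17:28259686-28260611), with 14.1 and 9.21 in the next types. Both peaks were picked after their values had been seen, from 19 PBS and 17 OVA peaks in the gene or within 5 kb.

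Esr2, the oestrogen receptor beta, had 3 UMIs in 3 of 733 PBS fibroblasts and 52 UMIs in 31 of 1126 OVA fibroblasts, 13 of them in 1 nucleus. The ratio was 2.67 on the log2 scale (interval 1.05 to 5.00) and 2.84 without the top nucleus of each library. The fibroblast gate drew on different clusters in the libraries. The cluster led by Bmp8a and Wnt2 (c1) gave 49.1% of it in PBS and 20.9% in OVA, and the cluster led by Cemip and Col25a1 (c3) 22.8% and 60.6%. Within c3 Esr2 had 2 UMIs (5.65 CPM) in PBS and 48 UMIs (27.3 CPM) in OVA, a ratio of 2.27 (interval 0.34 to 5.36), and within c1 it had 4 UMIs in each library. Nr2c1, the orphan receptor TR2, was lower in OVA fibroblasts, at 10.4 CPM (23 UMIs) against 23.4 CPM (19 UMIs), a log2 ratio of -1.17 (interval -2.11 to -0.21). Within c3 it was 11.4 against 25.4 CPM. The OVA level was below that in barcodes with fewer than 200 genes (13.4 CPM, 1 UMI), and the call was lost with the looser gate, the stricter gate, the named clusters and the filter on gene UMIs. Nr2f2 was lower in OVA AT2 nuclei at 23.3 CPM (15 UMIs) against 47.8 CPM (24 UMIs), a log2 ratio of -1.04 (interval -2.07 to -0.05), at levels below the free RNA gauge given above. The pair was therefore not read as expression in AT2 nuclei.

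Genes that work with the receptors were described by the same rules over 6 lists (62 genes). Of these, 45 had enough UMIs for the comparison of types and 12 (26.7%) had a leading type in both libraries, beside the 16.5% of all genes. Of 6 tested genes of oxysterol synthesis and liver X receptor targets 2 were called, the cholesterol exporters Abca1 (918 and 903 CPM, next type 323 and 419) and Abcg1 (459 and 635 CPM, next 97.0 and 57.1). Of 7 tested PPAR targets 3 were called, among them Plin2, a coat protein of lipid droplets (388 and 381 CPM), and Angptl4 (23.5 and 22.4 CPM), both in macrophages. The Angptl4 levels rest on few UMIs, since the macrophage gate held 84998 (PBS) and 267890 (OVA) nuclear UMIs. Of 2 tested genes of vitamin D and thyroid hormone handling 1 was called, the thyroid hormone transporter Slc16a10 in macrophages (306 and 343 CPM). Of 5 tested retinoid-handling genes 2 were called, among them the retinaldehyde dehydrogenase Aldh1a1 in fibroblasts (51.6 and 38.9 CPM). Of 16 coregulators 2 were called, the corepressor Nrip1 in ILC2s (1516 and 1820 CPM, next 329 and 597) and the coactivator Ppargc1a in AT2 nuclei (225 and 508 CPM, next 17.74 and 30.03). Of 9 tested clock partners 2 were called in AT2 nuclei, Npas2 (191 and 211 CPM) and Per3 (89.7 and 82.3 CPM). Abca1 and Abcg1 were thus highest in macrophages, while the receptor gene Nr1h3 was highest in pericytes. Nr1h2 did not differ between macrophages and ILC2s beyond counting error.

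Between the libraries, 3 of 159 pairs of list gene and type were higher in OVA and 2 lower, where over all genes tested 1.23% (fibroblasts) to 5.43% (macrophages) were higher and 1.87% (AT2) to 3.82% (macrophages) lower. Ppargc1a was higher in OVA AT2 nuclei by 1.17 on the log2 scale (interval 0.86 to 1.495; 113 and 327 UMIs). Npas2 in ILC2s was higher by 1.16 (8 and 48 UMIs), and Cry2, a clock repressor, was higher in pericytes by 2.13 (3 and 30 UMIs). Abcg1 was lower in OVA fibroblasts by a log2 ratio of -2.40 (31 and 16 UMIs), and the coactivator subunit Med1 in AT1 nuclei by -1.01 (23 UMIs in each library).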

How the data were processed

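The authors deposited raw counts, whole numbers of UMIs per gene and of transposition events per peak, written by Cell Ranger ARC 2.0.1 on mm10 per the labels, with peaks called in each library separately. Groups came from the labels. The 39 members, the 22 marker sets of 10 genes and the 6 gene lists were chosen with earlier results of these data known. Kept were nuclei with at least 200 genes and at most 60% mitochondrial UMIs, less the doublets called at 0.8% per 1000 barcodes from simulated doublets (293 PBS nuclei, 6.41%, and 250 OVA nuclei, 4.77%). Gene totals were 11473351 UMIs in PBS and 13774959 in OVA, and peak totals 66520943 and 51197323 counts.

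UMIs were summed per type and library and divided by nuclear-gene UMIs. With 1 library per group no test was made. A call needed 30 UMIs and a 2-fold difference. All 39 members were named, Vdr in every type, each called member with its values, each other member by its highest type, and from each list at most 4 called genes with the largest ratios, except that some list genes are not reported here. Starts were those of protein-coding transcripts in GENCODE M21. The calls were tested on simulated data. Clusters used 3000 variable genes, 30 components, 15 neighbours and Leiden resolution 1 (leidenalg 0.10.2), without members or lists. Python 3.11.15 and scipy 1.17.1 were used. Alternatives covered the gate, the doublets, the filter on nuclei, the UMI minimum, the scaling and the accessibility window. Unstated steps of alignment are not given in the sources used here.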

Additional observations from a re-analysis of the deposited data

Results flagged for a closer look

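The 6 compared types left out nuclei in which some receptors were higher. These are listed because the level was at least 2-fold above the highest compared type in both libraries, on at least 8 UMIs in each, in a cluster most of whose nuclei lay outside the 6 gates. The airway cluster led by Scgb1a1 and Dnah12 (c14, 46 PBS and 38 OVA nuclei) carried 3 of them. Rarb stood there at 406 CPM in PBS (29 UMIs in 22 nuclei) and 388 CPM in OVA (118 UMIs in 21 nuclei), against at most 25.9 and 21.3 CPM in the compared types. Thrb stood at 112 CPM (8 UMIs in 7 nuclei) and 292 CPM (89 UMIs in 16 nuclei), against at most 51.8 and 49.7. Esrrg stood at 168 CPM (12 UMIs in 10 nuclei) and 506 CPM (154 UMIs in 17 nuclei), against at most 6.15 and 6.79.

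The myofibroblast-like cluster led by Nrxn3 and Csmd1 (c5, 467 PBS and 382 OVA nuclei) carried the others. Esr1, the oestrogen receptor alpha, stood at 170 CPM in PBS (69 UMIs in 41 nuclei) and 113 CPM in OVA (65 UMIs in 38 nuclei), against at most 12.3 and 12.7 CPM in the compared types. Rarb stood at 126 CPM (51 UMIs) and 97.2 CPM (56 UMIs). The receptors were not used to form the clusters, and no test was made.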

How the results depend on the processing

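No paired analysis was possible because only 1 library stood in either group. The count of members with a leading type was 5, and 3 with 1000 to 25000 gene UMIs per nucleus (where pericytes fell under 50 nuclei) or with a minimum of 100 UMIs. The members also changed. The looser gate shared 3 of the main 5 and the named clusters 2, with Esr1 and Rarb entering in both. Esr2 entered with the stricter gate, the named clusters, doublets kept or all gene UMIs, and Nr2f2 with the filter on gene UMIs. The stricter gate and the named clusters left out macrophages, and so gave no value for them. Vdr kept its leading type where macrophages were compared, except with the looser gate, which added monocytes. Rara lost it with every alternative except the centred ratios and the minimum of 100 UMIs. The count higher in OVA was 3, and 7 with CPM over all gene UMIs, 5 with the mean of single-nucleus CPM and 1 with the minimum of 100 UMIs. The count lower in OVA was 2, and 1 with the looser gate, the stricter gate, the filter on gene UMIs or all gene UMIs, 4 with the mean of single nuclei and 0 with the minimum of 100 UMIs. Scaling by all gene UMIs moved the median log2 ratio of all genes up by 0.14 in AT1 nuclei to 0.25 in ILC2s, and changed the calls over all genes from 759 higher and 646 lower to 1488 and 312. It gave Vdr in macrophages 169 CPM (PBS) and 198 CPM (OVA), Nr4a2 in ILC2s 452 and 1246, Nr2f2 in fibroblasts 292 and 299, and Nr2f2 in pericytes 311 and 331. Nr4a2 in PBS ILC2s was 628 CPM with the filter on gene UMIs and 913 CPM as a mean of single nuclei, and in OVA ILC2s 1619 CPM with doublets kept. Nr2c1 in fibroblasts fell short of 2-fold at -0.99 with the looser gate, -0.63 with the stricter gate, -0.94 in the clusters and -0.72 with the filter on gene UMIs. Nr2f2 in AT2 nuclei did so at -0.97 with the looser gate, -0.79 with all gene UMIs and -0.49 as a mean of single nuclei. No direction reversed. The cause of these moves was not tested. Depth limits every type below about 30 UMIs per gene.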
